A study of Mus musculus with 6 samples.

Results

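The 38 genes described here make, sense, store, import or export cholesterol and fatty acids. They were chosen by gene symbol from known pathways, with no threshold on measured values but with earlier results of these data known. Of the 38, 36 had at least 1 probe set annotated to them alone, and all 36 were among the 10302 genes tested. Nr1h2, which encodes the nuclear receptor LXRβ, and Soat1, which encodes an enzyme that esterifies cholesterol, were not analysed here. Where a gene had several tested probe sets, it was represented by the one with the highest mean over the 6 arrays.

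The cells were grown from mouse embryonic stem cells, cultured on the stromal lines OP9 and OP9-DL1 with IL-7 and Flt3L, and sorted by flow cytometry as progenitors of the T lineage. Of the 6 arrays, 3 were labelled Gata3+/- (1 intact copy of the transcription factor gene Gata3) and 3 were labelled Gata3-/- (no intact copy). The reference group therefore also carries 1 disrupted allele, and no wild-type array entered the comparison. The labels call the arrays biological replicates but say neither how many stem cell clones were used nor whether each replicate was a separate culture, so the p-values given here cover no spread beyond that among the 6 arrays. Each array measured a whole sorted population, so fewer cells of a type and less RNA per cell cannot be told apart.

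Cholesterol is built from acetyl-CoA through mevalonate, isoprenoid units, squalene and lanosterol. When membrane cholesterol is low, the escort protein SCAP carries the SREBP transcription factors out of the endoplasmic reticulum, they are cleaved, and they switch on the genes of sterol and fatty acid synthesis. When sterols are high, INSIG proteins hold SCAP back, while oxidised sterols activate the LXR receptors, which raise the efflux pumps ABCA1 and ABCG1. Macrophages in particular take up lipoproteins and cell debris, secrete apolipoprotein E and return cholesterol to the circulation by efflux.

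No lipid gene among the 36 passed the threshold between the genotypes in limma (adjusted p under 0.05), against 5.27% of all genes tested. At an unadjusted limma p under 0.05 there were 11 of 36 (30.6%), against 25.8% of all genes. Of the 36, 4 were higher and 7 lower in Gata3-/- arrays at that level, against 13.6% and 12.3% of all genes. The genotypes did not overlap for 14 of 36 (38.9%), against 33.6% of all genes. Every Gata3-/- array lay above for 5 of them (16.9% of all genes did so) and below for 9 (16.7% of all genes). The shares with both directions together were near the background. By direction, more members lay lower than higher. Of the 36, 25 were below 0 and 11 above, against 5493 and 4809 of all 10302 genes. This lean was not tested. The median difference of the 36, as Gata3-/- minus Gata3+/- on the log2 scale, was -0.11, against -0.02 for all genes tested. For 30 of the 36 the 95% interval of the difference lay wholly within a 2-fold change in either direction, and for the remaining 6 (Fads1, Fads2, Abca1, Nr1h3, Apoe and Ppard) it reached further. Differences ran from -0.99 for Apoe to 0.92 for Nr1h3.

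**Figure D1:**
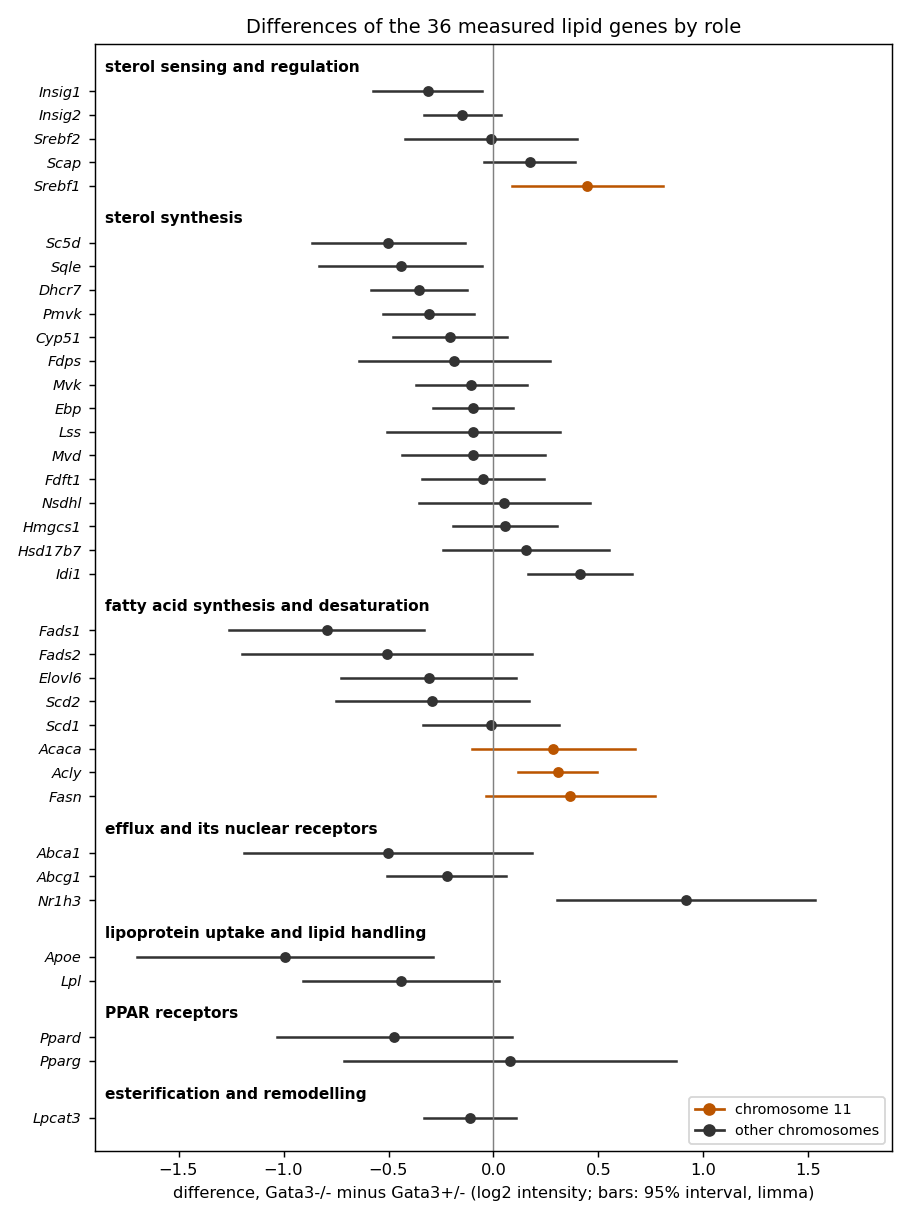
Difference in log2 intensity, Gata3-/- minus Gata3+/-, of the 36 measured lipid genes, grouped by role and sorted within each group, with 95% intervals from limma (3 arrays per genotype). Genes on chromosome 11 are in orange: Srebf1, Acaca, Acly and Fasn lie to the right of 0, while Fads1, Fads2, Elovl6 and Scd2 lie to the left. With centring by chromosome Acaca and Acly turn to -0.04 and -0.01.

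Markers of the cell types the sort could hold were read on the same arrays. Of 12 T-lineage markers 11 had a probe set, and 9 of those, among them Cd3e, Cd3d, Cd3g, Ptcra and Bcl11b, never reached the minimum on any array (log2 intensity 4). The other 2, Cd5 and Lat, were measured. Cd5 was read at 4.502, 4.502 and 5.24 in Gata3+/- and at 6.26, 6.71 and 5.59 in Gata3-/- arrays (difference 1.44, adjusted p = 0.0764), and Lat differed by -0.85 (adjusted p = 0.157), each with no overlap. The T-cell receptor complex genes Cd3e, Cd3d and Cd3g were thus among those never at the minimum. All 12 macrophage and monocyte markers were measured. Of the 12, 10 were lower, and 1 of these, the Fc receptor gene Fcgr1, passed the threshold (2.41% of all genes passed as lower). Every Gata3-/- array lay below for 8 of the 12 (16.7% of all genes) and above for 1 (16.9%). The summed intensity of the 12 ran from 122728 to 142094 on Gata3+/- arrays and from 90629 to 104833 on Gata3-/- arrays. Bright probe sets dominate such a sum, and the median level of the 12 overlapped, from 12.53 to 12.997 and from 12.44 to 12.62. Of 7 markers of conventional dendritic cells 4 were measured, while Cd209a and Xcr1 never reached the minimum and Clec9a had no probe set annotated to it alone. The 4 summed to 3358 to 10565 and to 23188 to 33216, with Zbtb46 past the threshold and Itgax overlapping between genotypes. That sum moved mainly with Ccr7, a gene of activated dendritic cells, read at 13.10, 10.62 and 12.95 in Gata3+/- and at 14.83, 14.35 and 14.74 in Gata3-/- arrays. Of 5 measured markers of plasmacytoid dendritic cells 4 did not overlap (33.6% of all genes did not). All 4 were lower in Gata3-/- arrays, as 16.7% of all genes were. Of these, 2 passed the threshold in limma: Siglech with a difference of -4.498 (adjusted p = 0.0281) and Irf8 with -0.67 (adjusted p = 0.0383). Bst2 and Tcf4 differed by -0.21 and -0.16 and did not pass. Of 5 proliferation genes 4 lay below 0 and 0 passed, with a median of -0.19; Mki67 (-0.33) and Aurka (-0.50) did not overlap. Of 18 markers of OP9 stroma 15 were measured, and their sum ran from 7557 to 23756 and from 5294 to 21139; Dcn, Lum and Thy1 never reached the minimum. Of 9 adipocyte markers 7 had a probe set, and Adipoq, Plin4, Lep, Retn and Cidec never reached the minimum, while Fabp4 and Cebpa did. The part of these cells in the lipid gene values was not tested, except where a value is given below.

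Sterol synthesis was the largest group, with all 15 of its members measured and 0 past the threshold. Their median difference was -0.10, with 4 above 0 and 11 below, against 4809 and 5493 of all 10302 genes tested. They ran from -0.50 for Sc5d to 0.41 for Idi1. The median was -0.04 without Gata3+/- replicate 2 and -0.17 without Gata3+/- replicate 3. All 15 intervals lay within a 2-fold change. The 6 genes of the mevalonate and isoprenoid steps (Hmgcs1, Mvk, Pmvk, Mvd, Idi1 and Fdps) and the 9 that follow them, from squalene to cholesterol, had the same median, -0.10.

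The promoters of 3 of these genes are shown because Hmgcs1 encodes the first enzyme of the group while Idi1 and Sc5d had its highest and lowest differences. Capitals mark a sterol regulatory element (TCACNCCAC on either strand, the sequence that SREBP proteins bind) and the CCAAT box (CCAAT, or ATTGG on the other strand, bound by NF-Y, with which SREBP proteins work). Each runs 5′ to 3′ on the strand of the gene, from 250 bases before to 50 bases after the start annotated by RefSeq in GRCm38.p6. Hmgcs1 is at chr13:119690101-119690400 on the plus strand, Idi1 at chr13:8885356-8885655 on the plus strand and Sc5d at chr9:42264251-42264550 on the minus strand.
Hmgcs1: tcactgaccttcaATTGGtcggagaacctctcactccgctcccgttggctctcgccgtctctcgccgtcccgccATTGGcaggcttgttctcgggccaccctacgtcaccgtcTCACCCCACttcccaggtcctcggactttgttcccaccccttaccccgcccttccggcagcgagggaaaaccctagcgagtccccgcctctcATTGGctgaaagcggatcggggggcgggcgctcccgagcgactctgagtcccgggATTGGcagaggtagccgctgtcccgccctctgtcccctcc
Idi1: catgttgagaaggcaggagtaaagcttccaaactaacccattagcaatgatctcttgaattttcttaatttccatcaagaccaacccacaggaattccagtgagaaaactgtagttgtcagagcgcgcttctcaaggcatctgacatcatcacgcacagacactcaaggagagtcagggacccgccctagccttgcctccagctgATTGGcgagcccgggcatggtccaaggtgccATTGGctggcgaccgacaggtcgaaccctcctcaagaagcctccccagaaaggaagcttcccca
Sc5d: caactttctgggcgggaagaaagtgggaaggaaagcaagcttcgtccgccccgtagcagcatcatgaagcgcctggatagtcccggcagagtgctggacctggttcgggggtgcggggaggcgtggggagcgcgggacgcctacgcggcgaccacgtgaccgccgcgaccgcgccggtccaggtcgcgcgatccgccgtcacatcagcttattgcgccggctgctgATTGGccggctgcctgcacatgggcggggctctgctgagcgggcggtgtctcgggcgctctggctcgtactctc

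The Hmgcs1 window held 1 sterol regulatory element, 137 bases before the annotated start, and 4 CCAAT boxes; Idi1 held 2 CCAAT boxes and Sc5d held 1. RefSeq windows were found for 12 of the 15 sterol synthesis genes, 15 windows in all. All 12 genes had a CCAAT box in at least 1 window, and 12 of the 15 windows (80.0%) held one, against 37.4% of the 32851 promoter windows in the table. The GC box GGGCGG, bound by Sp1, was in 12 of the 15 windows, against 35.7% of all. The E-box CACGTG was in 3 of 15 against 7.15%, the sterol regulatory element in 1 of 15 against 1.24%, and the direct repeat of LXR (2 copies of AGGTCA with 4 bases between) in 0 of 15 against 0.0152%. A match is a description of letters and not a site of binding, and a window without one says nothing about the factor.

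In the first steps of the pathway the genotypes mostly overlapped. Hmgcs1 encodes HMG-CoA synthase, which starts the mevalonate branch. Its levels were 12.60, 12.84 and 12.57 on Gata3+/- arrays and 12.67, 12.70 and 12.80 on Gata3-/- arrays, a difference of 0.06 (SE 0.10). Its 4 other tested probe sets gave differences between -0.06 and 0.14. Mvk, mevalonate kinase, differed by -0.11 (SE 0.11), but its second probe set differed by 0.22 (SE 0.12), so the direction of Mvk depended on the probe set. Pmvk, phosphomevalonate kinase, was read at 9.63, 9.77 and 9.73 in Gata3+/- and at 9.45, 9.48 and 9.28 in Gata3-/- arrays, with all of the latter below all of the former (difference -0.31, SE 0.09, adjusted p = 0.108). Mvd, the decarboxylase that follows, differed by -0.10 (SE 0.14) and Fdps, farnesyl diphosphate synthase, by -0.19 (SE 0.18), both with overlapping arrays.

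Idi1 had the largest positive difference of the 15. It encodes the isomerase that balances the isoprenoid units. The 3 Gata3+/- arrays read 11.66, 11.66 and 11.40 and the 3 Gata3-/- arrays read 12.07, 11.96 and 11.94, a difference of 0.41 (SE 0.10, adjusted p = 0.0795). Every Gata3-/- array lay above every Gata3+/- array, and the second Idi1 probe set gave 0.47 (adjusted p = 0.0688). With the 2 probe sets averaged the difference was 0.44 and passed (limma adjusted p = 0.0468).

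From squalene onward 7 of the 9 genes lay below 0, against 5493 of all 10302 genes tested. Sqle, squalene epoxidase, a rate-limiting oxygen-consuming step, was read at 10.24, 10.54 and 10.03 on Gata3+/- arrays and at 9.72, 10.004 and 9.76 on Gata3-/- arrays (difference -0.44, SE 0.16, adjusted p = 0.169). The genotypes did not overlap, though the gap between the nearest arrays was narrow. Cyp51, lanosterol demethylase, likewise did not overlap, with a difference of -0.21 (SE 0.11), or -0.10 without Gata3+/- replicate 2. Its nearest arrays read 10.34 in Gata3+/- and 10.32 in Gata3-/-, and its other tested probe set overlapped (-0.17). Fdft1, squalene synthase, and Lss, lanosterol synthase, differed by -0.05 and -0.10, less than their standard errors of 0.12 and 0.17. Nsdhl and Hsd17b7, which act on the demethylated sterols, differed by 0.05 and 0.16, and Ebp, the sterol isomerase, by -0.10, each with overlapping arrays.

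Sc5d and Dhcr7 act in the last desaturation and reduction steps. Sc5d, which introduces a double bond into the sterol ring, was read at 9.59, 9.90 and 9.37 in Gata3+/- and at 9.10, 9.20 and 9.07 in Gata3-/- arrays, a difference of -0.50 (SE 0.15, adjusted p = 0.115). Its second tested probe set, at 6.25, 6.30 and 6.16 against 5.73, 5.69 and 5.56, fell by 0.57 (SE 0.08, adjusted p = 0.0349). That was the 1 probe set past the threshold among the 64 tested for the 36 genes, against 4.37% of all probe sets, and without any 1 array at most 9 of all probe sets passed. With both probe sets averaged Sc5d passed (-0.54, limma adjusted p = 0.0416). Dhcr7, the reductase that completes cholesterol, was read at 9.49, 9.61 and 9.42 against 9.23, 9.19 and 9.03, with no overlap (difference -0.35, SE 0.09, adjusted p = 0.0903).

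Of 6 further sterol synthesis genes outside the set, 3 were measured, and 0 passed. Msmo1, the sterol methyl oxidase, differed by -0.37 (adjusted p = 0.247), Tm7sf2, a sterol reductase, by -0.49 (adjusted p = 0.274), and Lbr, the lamin B receptor with the same reductase activity, by -0.38 (adjusted p = 0.216). Each lay below 0, and only Msmo1 had genotypes that did not overlap.

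**Figure D2:**
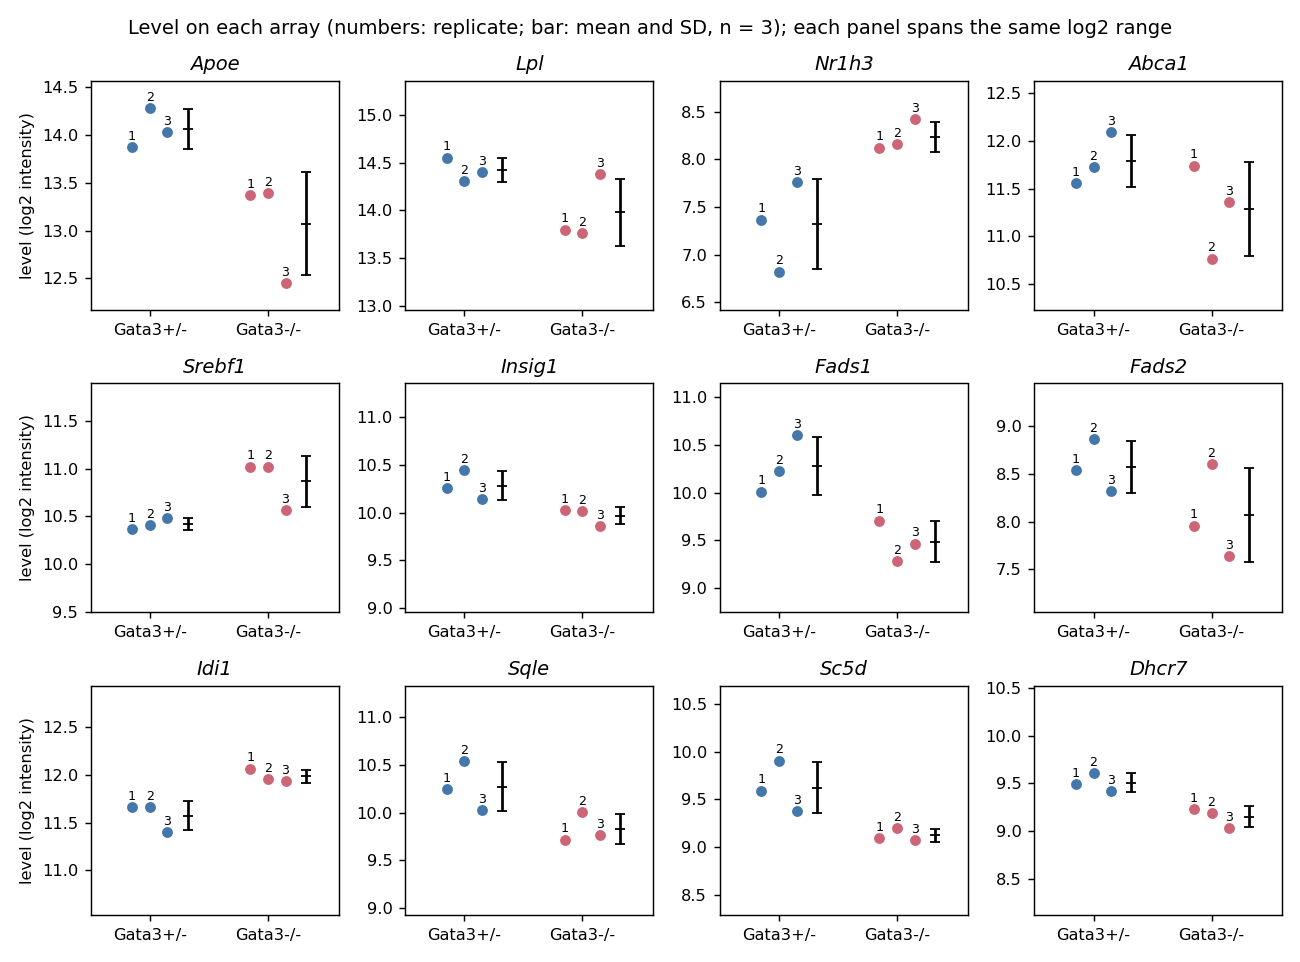
Level (log2 intensity) of 12 lipid genes on each array, labelled by replicate number, with the mean and SD of 3 arrays per genotype at the right of each group; panels span the same log2 range at different levels. Gata3-/- arrays lie wholly below Gata3+/- arrays for Apoe, Insig1, Fads1, Sqle, Sc5d and Dhcr7, wholly above for Nr1h3, Srebf1 and Idi1, and overlap for Lpl, Abca1 and Fads2.

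Sterol synthesis genes varied together within a genotype. Among the 3 Gata3+/- arrays, replicate 2 had the highest level for 12 of the 15 genes, against 33.3% of all genes tested, and replicate 3 the lowest for 14 of 15, against 32.2%. Among the Gata3-/- arrays, replicate 3 was lowest for 11 of 15, against 36.8% of all genes. Measured as the median deviation from each gene's mean over the 6 arrays, the group stood at 0.08, 0.22 and -0.11 on Gata3+/- arrays 1 to 3 and at -0.05, -0.04 and -0.15 on Gata3-/- arrays 1 to 3. The highest and lowest Gata3+/- arrays were thus farther apart than the genotypes' median difference of -0.10. These are counts over genes read on the same arrays, which are not independent. Stromal markers also moved within a genotype, with median deviations of 0.88, -1.02 and 0.89 on Gata3+/- arrays and of -0.25, -1.44 and 0.84 on Gata3-/- arrays. The Gata3+/- array with the highest sterol genes had the lowest stromal markers of its genotype. The arrays numbered 3 of both genotypes had low sterol genes and high stromal markers. Gata3+/- replicate 1 had stromal markers at 0.88, close to replicate 3, with sterol genes at 0.08. Gata3-/- replicate 2 had the lowest stromal markers, -1.44. Its sterol genes, at -0.04, were the highest of its genotype by little, with replicate 1 at -0.05. The part of stroma in this was not tested. Without both arrays numbered 2 the median difference of the 15 genes was -0.07.

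**Figure D3:**
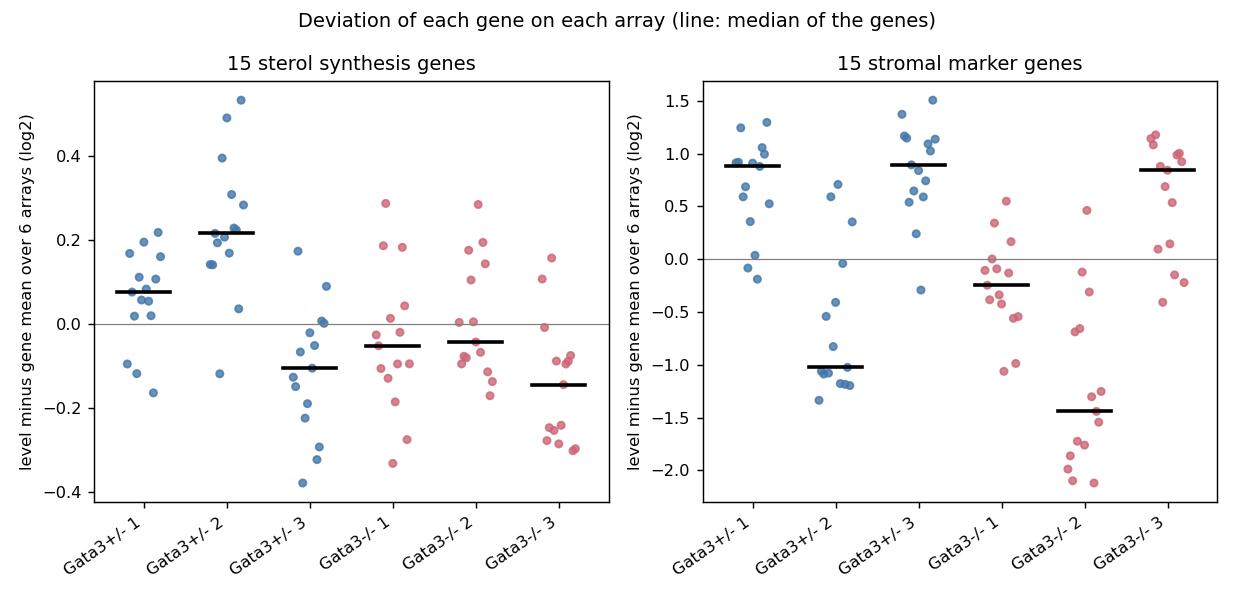
Deviation of each gene from its own mean over the 6 arrays (log2) for the 15 sterol synthesis genes (left) and the 15 measured stromal markers (right); points are genes, black lines the median of the genes on that array, and the vertical scales differ. Sterol genes are highest on Gata3+/- replicate 2 (median 0.22), where stromal markers are low (median -1.02). Stromal markers are lowest on Gata3-/- replicate 2 (median -1.44), where sterol genes stand at -0.04, the highest of that genotype by little.

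The sensors and regulators upstream of these enzymes were all measured, and 0 of 5 passed. Their median difference was -0.01, with 2 above 0 and 3 below. Srebf2, the SREBP that chiefly drives sterol synthesis, differed by -0.01 (SE 0.17), with an interval from -0.42 to 0.40. Srebf1, which encodes the SREBP-1 proteins that chiefly drive fatty acid synthesis, was read at 10.36, 10.41 and 10.48 in Gata3+/- and at 11.02, 11.02 and 10.56 in Gata3-/- arrays (difference 0.45, SE 0.14, adjusted p = 0.140). All Gata3-/- arrays were above, replicate 3 by little. Insig1, itself an SREBP target, was read at 10.26, 10.45 and 10.14 against 10.03, 10.01 and 9.86, wholly below (difference -0.31, SE 0.11, adjusted p = 0.151). Insig2 differed by -0.15 (SE 0.07) and Scap by 0.17 (SE 0.09), and neither overlapped between genotypes, with limma adjusted p-values of 0.296 and 0.307. Other Insig2 probe sets gave -0.19 without overlap and -0.02 with overlap.

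All 8 genes of fatty acid synthesis and desaturation were measured, 0 passed, and their median difference was -0.15 (-0.09 without Gata3+/- replicate 2). Acly, which makes cytosolic acetyl-CoA from citrate, Acaca, which carboxylates it, and Fasn, which builds palmitate, all lie on chromosome 11 and differed by 0.31, 0.28 and 0.37. The other 5, which desaturate or elongate fatty acids and lie on chromosomes 3 and 19, had differences below 0, with a median of -0.31, though that of Scd1 (-0.01) became 0.03 with centring by chromosome. On chromosome 11 the genes tested were displaced as a whole, with a median difference of 0.33 over 886 genes. The next highest median was 0.10, on chromosome 14, over 342 genes. With the median deviation of its chromosome subtracted on each array, Acly differed by -0.01, Acaca by -0.04 and Fasn by 0.05 (limma adjusted p = 0.945, 0.936 and 0.911). Srebf1, also on chromosome 11, then differed by 0.13 (adjusted p = 0.649). The 24 tested genes nearest to each, 12 on either side, had median differences of 0.35 around Acly, 0.33 around Acaca, 0.32 around Fasn and 0.29 around Srebf1. So the 4 lipid genes of chromosome 11 differed by about as much as the genes beside them.

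Acly had the narrowest error of the 3. Its levels were 12.66, 12.78 and 12.81 on Gata3+/- arrays and 13.11, 13.03 and 13.03 on Gata3-/- arrays (SE 0.08, adjusted p = 0.0834), with no overlap. Its other 2 tested probe sets gave 0.43 and 0.38, and the mean of the 3 passed (0.37, limma adjusted p = 0.0405), as did the main probe set with a variance trend and robust eBayes (adjusted p = 0.0415). Fasn was read at 9.88, 10.11 and 9.92 against 10.66, 10.24 and 10.11, where Gata3-/- replicate 3 and Gata3+/- replicate 2 were level (adjusted p = 0.252). The Fasn difference was 0.20 without Gata3-/- replicate 1. Acaca overlapped too (adjusted p = 0.343), and its difference was 0.18 without Gata3+/- replicate 1.

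**Figure D4:**
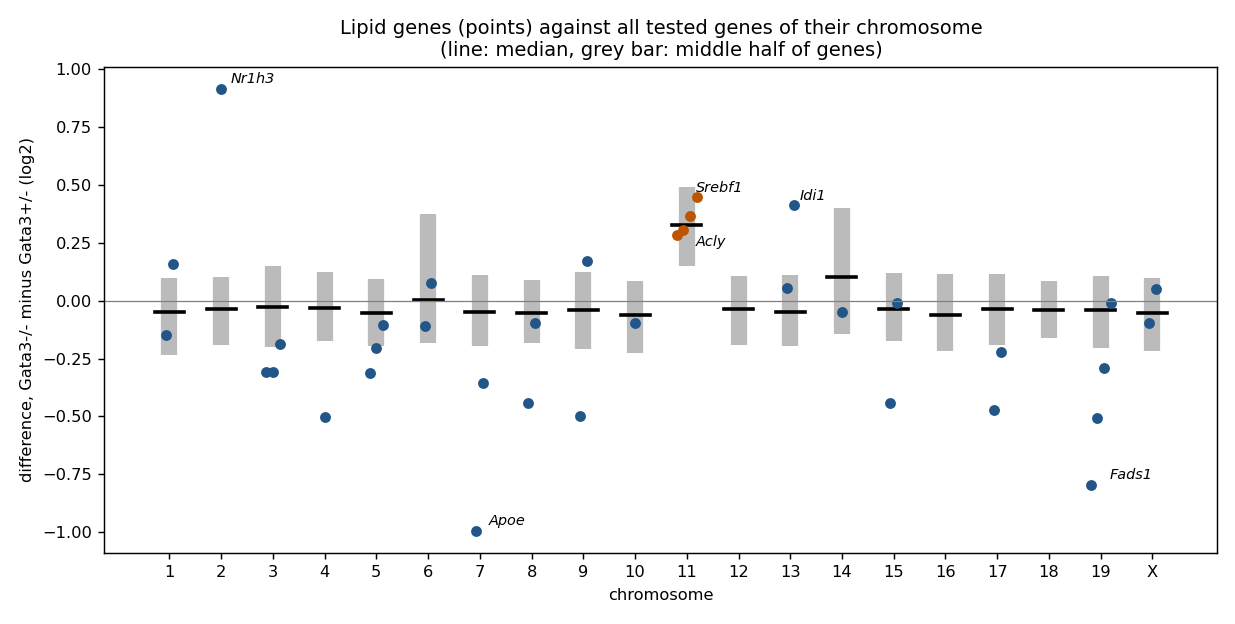
Difference in log2 intensity, Gata3-/- minus Gata3+/-, of each lipid gene (points) by chromosome, beside the median (black line) and the middle 50% (grey bar) of all tested genes on that chromosome. The 4 genes on chromosome 11 (orange) lie near its median of 0.33, while Nr1h3, Idi1, Fads1 and Apoe lie outside the grey bars of their chromosomes.

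Fads1 and Fads2 encode the desaturases that make long polyunsaturated fatty acids such as arachidonic acid, and both lie on chromosome 19, whose genes had a median difference of -0.04. Fads1 was read at 10.01, 10.22 and 10.61 on Gata3+/- arrays and at 9.71, 9.28 and 9.47 on Gata3-/- arrays, a difference of -0.79 (SE 0.19, adjusted p = 0.0740). Every Gata3-/- array lay below every Gata3+/- array. Fads2 was read at 8.54, 8.86 and 8.32 against 7.96, 8.61 and 7.64 (difference -0.51, SE 0.28, adjusted p = 0.342), and here Gata3-/- replicate 2 lay among the Gata3+/- arrays. Its 2 other probe sets gave -0.51 and -0.52. The Fads2 difference was -0.78 without that array and -0.29 without Gata3-/- replicate 3.

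Scd1 and Scd2 encode stearoyl-CoA desaturases, which make monounsaturated fatty acids. Scd1 did not separate the genotypes, with a difference of -0.01 (SE 0.13) and an interval from -0.33 to 0.31. Scd2 was read at 12.87, 13.38 and 12.80 against 12.72, 12.90 and 12.55 (difference -0.29, SE 0.19, adjusted p = 0.410). The arrays overlapped, and in each genotype replicate 2 was the highest; without Gata3+/- replicate 2 the difference was -0.11. Elovl6, the elongase that turns palmitate into stearate, differed by -0.31 (SE 0.17, adjusted p = 0.340), again with overlap and with replicate 2 highest in each genotype, and by -0.17 without Gata3-/- replicate 3.

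Of 13 further genes of fatty acid synthesis and elongation, 9 were measured and 0 passed, with a median of -0.17. Acsl3, an acyl-CoA synthetase, had the smallest p (difference -0.42, SE 0.09, adjusted p = 0.0583), followed by the elongase gene Elovl1 (-0.24, SE 0.07, adjusted p = 0.112). Acacb, Mlxipl and Thrsp, which are prominent in liver and fat, never reached the minimum.

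Efflux was represented by 2 pumps and 1 LXR gene, and 0 of 3 passed. Abca1, which loads cholesterol onto apolipoprotein A-I, was read at 11.56, 11.73 and 12.09 in Gata3+/- and at 11.74, 10.77 and 11.36 in Gata3-/- arrays. The arrays overlapped (difference -0.50, SE 0.28, adjusted p = 0.345), and its 2 other probe sets gave -0.44 and -0.42. Without Gata3-/- replicate 2 the difference was -0.24. Abcg1, which exports cholesterol to larger lipoproteins, was read at 10.51, 10.87 and 10.80 against 10.53, 10.56 and 10.43 (difference -0.22, SE 0.11, adjusted p = 0.314). Gata3+/- replicate 1 lay among the Gata3-/- arrays, while a second probe set did not overlap (-0.43, SE 0.16, adjusted p = 0.181).

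Nr1h3, which encodes LXRα, the sterol-activated receptor that induces both pumps, had the largest positive difference of the 36. It was read at 7.37, 6.82 and 7.77 on Gata3+/- arrays and at 8.12, 8.16 and 8.42 on Gata3-/- arrays. All Gata3-/- arrays lay above, and the difference was 0.92 (SE 0.25, adjusted p = 0.0979), or 1.89-fold. With array weights it passed (0.93, limma adjusted p = 0.0423). It was 0.67 without Gata3+/- replicate 2, the array lowest for Nr1h3, and 1.14 without Gata3+/- replicate 3. The part of dendritic cells in the level of Nr1h3 was not tested.

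Apoe and Lpl were the lipoprotein genes of the set, and 0 of 2 passed. Apoe encodes the apolipoprotein by which macrophages carry cholesterol away and cells take up remnant particles. Its levels were 13.88, 14.29 and 14.03 on Gata3+/- arrays and 13.37, 13.39 and 12.45 on Gata3-/- arrays, with no overlap. The difference of -0.99 (SE 0.28, adjusted p = 0.110) was the largest of the 36 in size, a ratio of 0.502. Gata3-/- replicate 3 was lowest, and without it the difference was -0.68. Macrophage markers were lower in Gata3-/- arrays as well, with a median difference of -0.41 over 12 genes. By their sum Gata3-/- replicate 2 was lowest (90629). By their median level Gata3-/- replicate 3 was lowest (12.44, with replicate 2 at 12.51). The part of macrophages in the level of Apoe was not tested.

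Lpl, lipoprotein lipase, which releases fatty acids from circulating triglyceride, was read at 14.56, 14.31 and 14.40 against 13.80, 13.76 and 14.38. Gata3-/- replicates 1 and 2 lay below and replicate 3 within the Gata3+/- arrays (difference -0.44, SE 0.19, adjusted p = 0.233). The second Lpl probe set gave -0.72 (SE 0.28, adjusted p = 0.195). Lpl is also made by preadipocytes such as OP9. Summed stromal markers on Gata3-/- arrays 1 to 3 were 11179, 5294 and 21139, the highest being on the same replicate 3. On Gata3+/- arrays 1 to 3 they were 21662, 7557 and 23756, and there Lpl was lowest (14.31) on replicate 2, the array with the lowest sum. Of the 15 measured stromal markers 13 lay below 0 and 2 above, with a median difference of -0.66 and 0 past the threshold. The part of stroma was not tested.

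Genes for 2 lipid-sensing PPAR receptors did not separate the genotypes. Pparg, which drives fat cell and macrophage lipid programmes, was read at 8.30, 7.79 and 7.97 against 7.43, 8.26 and 8.59, so that both the lowest and the highest array were Gata3-/- (difference 0.08, SE 0.32). The interval ran from -0.71 to 0.87. Ppard differed by -0.47 (SE 0.23, adjusted p = 0.281), with overlap, and by -0.31 without Gata3+/- replicate 3. Lpcat3, which remodels membrane phospholipids and is induced by LXR, differed by -0.11 (SE 0.09), with an interval from -0.33 to 0.11.

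Beyond the 38 genes, 58 further genes of lipid uptake, transport, burning and storage were listed, of which 50 had a probe set and 45 were tested. In limma 2 of the 45 rose and 3 fell, against 2.86% and 2.41% of all genes. None of the 5 passed without any 1 of the 6 arrays, where at most 4 of all genes passed. Lrp8, a receptor for apolipoprotein E, was read at 5.87, 5.33 and 5.68 in Gata3+/- and at 7.21, 6.80 and 6.71 in Gata3-/- arrays, so it rose by 1.28 (SE 0.19, adjusted p = 0.0363). It lay above in all 3 Gata3-/- arrays. Scarb1, the scavenger receptor that exchanges cholesterol with high-density lipoprotein, fell from 11.47 ± 0.07 to 10.89 ± 0.05 (SD, n = 3), by 0.58 (SE 0.07, adjusted p = 0.0312), and its 2 other probe sets also fell, by 0.63 and 0.53. The other 10 measured genes of lipoprotein uptake and intracellular cholesterol did not pass.

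Apoc1, an apolipoprotein gene next to Apoe on chromosome 7, was read at 8.79, 9.39 and 9.19 against 7.91, 8.05 and 7.49, and fell by 1.30 (SE 0.21, adjusted p = 0.0383). On both Apoe and Apoc1 all Gata3-/- arrays lay below, with replicate 3 lowest. The 24 tested genes nearest to Apoe had a median difference of 0.02, and Tomm40, the gene on its other side, differed by -0.21 (adjusted p = 0.230). Abcg2, a pump of drugs, haem and urate in the family of Abcg1, was read at 12.10, 12.19 and 12.01 against 11.20, 11.33 and 11.39, and fell by 0.79 (SE 0.09, adjusted p = 0.0283). The other 4 measured genes among LXR targets and lipoprotein remodelling did not pass, and Mylip, an LXR target that marks lipoprotein receptors for destruction, differed by -0.30 (adjusted p = 0.332).

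Of 9 genes of fatty acid oxidation 7 were measured, with a median of 0.08. Acadvl, the dehydrogenase of very long chains, rose by 0.61 (SE 0.11, adjusted p = 0.0465), from 10.29 ± 0.19 to 10.90 ± 0.02 (SD, n = 3). Acadvl lies on chromosome 11, and with its chromosome's median deviation subtracted it differed by 0.29 (limma adjusted p = 0.141). Acadm, which acts on medium chains and lies on chromosome 3, differed by 0.43 (SE 0.10, adjusted p = 0.0714). Of 9 storage genes 8 were measured and 0 passed: Dgat1, which makes triglyceride, differed by 0.99 (SE 0.26, adjusted p = 0.0901) and Lipe, the hormone-sensitive lipase, by 0.45 (SE 0.12, adjusted p = 0.0885).

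**Figure D5:**
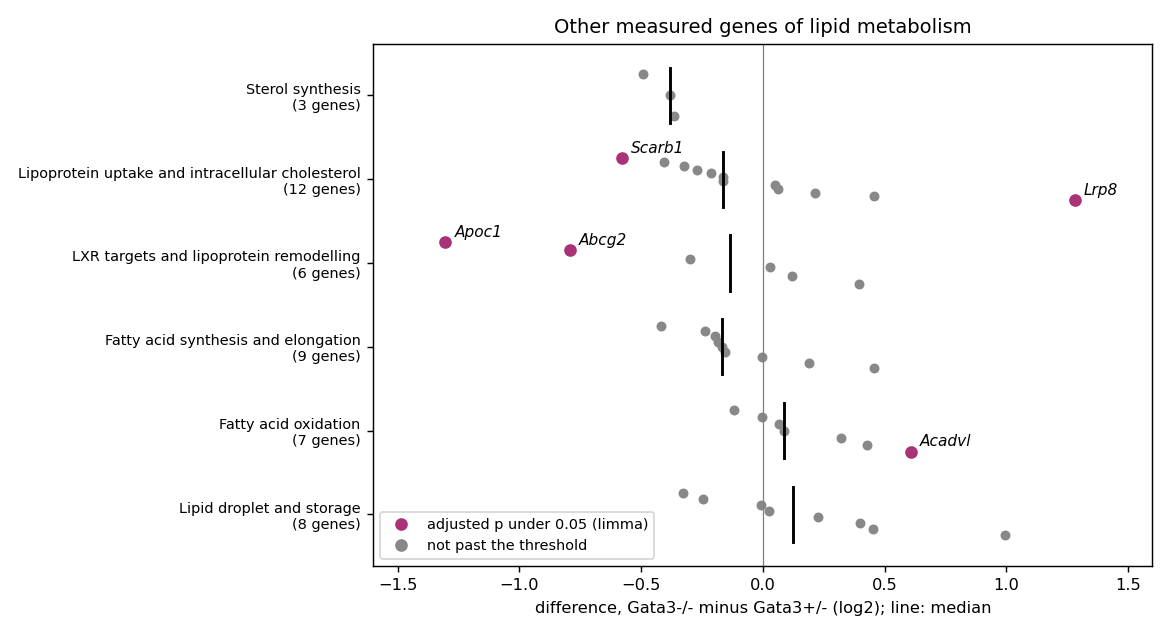
Difference in log2 intensity, Gata3-/- minus Gata3+/-, of 45 measured genes of lipid metabolism outside the set, by role; each point is a gene, black lines are medians, and purple points passed an adjusted p of 0.05 in limma. Lrp8 and Acadvl lie above 0, and Scarb1, Apoc1 and Abcg2 below it.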

How the data were processed

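The authors deposited linear intensities of 45101 probe sets on 6 arrays, made with GC-RMA per the labels (background correction from probe sequence, then normalization between arrays). GCOS is named in the submitters' processing notes, without a version. These intensities ran from 2.28 to 77335, with array medians of 8.57 to 8.93. Here log2 was taken, 64 control probe sets were left out, and the 20102 probe sets at a log2 value of at least 4 on at least 3 arrays were tested with limma 3.58.1 in R 4.3.3 (lmFit and eBayes, two-sided, Benjamini-Hochberg over all tested, threshold 0.05). The number of arrays limits the precision. The fit was tested on simulated data.

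Genes were named from the 34958 probe sets with 1 symbol in the platform annotation (932 had several, 9211 were not listed). Chromosomes, neighbours and promoters came from RefSeq GRCm38.p6; 30 of the 38 members had a promoter there. The members and lists were chosen with earlier results of these data known. By rule, array values are given for up to 3 members per role with the largest difference or the highest level, and other pathway genes are named where past the threshold, otherwise up to 2 per list by smallest p. Array values of further members, and Tm7sf2, Acadm, Mylip, Tomm40 and the never-measured genes, were added with their values in view. The alternatives covered the filter, normalization, centring, the variance model, array weighting, a block for replicate number, averaged probe sets, a 2-fold minimum, and leaving arrays out.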

Additional observations from a re-analysis of the deposited data

How the results depend on the processing

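No member of the set passed in the main analysis, and 5 of the 36 (Acly, Idi1, Sc5d, Dhcr7 and Nr1h3) passed under at least 1 of 16 other fits. With a variance trend and robust eBayes 1 member passed (higher in Gata3-/-), beside 824 of all 10302 genes. With array weights 2 higher and 2 lower members passed, beside 1224 of all genes. With averaged probe sets 2 higher and 1 lower passed, beside 731 of all genes. In the fits without 1 array 0 members passed. Over the 16 fits 26 members kept their sign. Of the others, centring by chromosome gave 0.015 for Srebf2, -0.035 for Acaca, -0.015 for Acly and 0.032 for Scd1; array weights gave 0.11 for Srebf2, which also moved the median of the sterol sensing group to 0.11, -0.019 for Nsdhl and -0.085 for Pparg; averaging gave 0.055 for Mvk; and leaving out both arrays numbered 2 gave 0.0046 for Srebf2, 0.029 for Fdft1 and -0.12 for Pparg. Without 1 array the differences ran from -0.14 to 0.11 for Srebf2, -0.078 to 0.12 for Scd1, -0.16 to 0.043 for Fdft1, -0.10 to 0.18 for Nsdhl, -0.21 to 0.0045 for Mvd, -0.26 to 0.00065 for Lss and -0.17 to 0.41 for Pparg, and the median of the sterol sensing group from -0.14 to 0.11. Leaving out 1 array also moved Hmgcs1, Mvk, Fdps, Hsd17b7, Scap and Lpcat3 by over 1.5 times, with no change of sign. The cause was not tested.

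Over all features, 878 probe sets and 543 genes passed. Array weights raised these to 2075 and 1224, and robust eBayes on a variance trend to 1349 and 824. Lower counts came from centring by chromosome (547 and 335), the replicate block (498 and 298), a 2-fold minimum (257 and 159), testing unfiltered data (166 and 98), fits lacking both arrays numbered 2 (4 and 3) and fits lacking 1 array (0 to 9 and 0 to 4), which hold fewer samples. With the block 0 members passed. Deviations of same-numbered arrays correlated by 0.00501, 0.695 and 0.429 for numbers 1, 2 and 3. Arrays numbered 2 and 3 thus shared part of their spread across the genotypes, and those numbered 1 did not. The labels do not say that a number marks a pair, so the main fit took no pairs. Lrp8, Scarb1, Apoc1, Abcg2 and Acadvl passed in 8, 8, 7, 9 and 6 of the 16 fits, with adjusted p-values in limma up to 0.138, 0.135, 0.137, 0.119 and 0.141.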
